A study of Homo sapiens with 6 samples.

Results

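The 125 genes described here are long noncoding RNA genes (lncRNAs) with systematic names, of 1630 genes in the authors' deposited table. They were chosen by name alone: 55 symbols start with LINC, 54 carry -AS and a number (antisense to a named gene), 15 end in -DT (divergent transcript of a named gene) and 1 carries -IT and a number (inside an intron of a named gene). RNA of U87MG cells, an established human glioblastoma line, was sequenced in 6 libraries. The cells of 3 libraries held a control hairpin (shControl), and those of the 3 others a short hairpin RNA against CREPT (shCREPT). CREPT is encoded by RPRD1B and associates with the tail of the largest RNA polymerase II subunit. No other allele, agent or time point is given for either group, and the labels do not say whether the 3 shCREPT libraries came from separate cultures or from more than 1 hairpin, so a p-value here reflects only how these libraries scatter, which may be technical. Every listed gene had been marked significant by the authors for this same contrast, so a change among the lncRNAs is what put them in the table.

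RNA polymerase II makes most lncRNAs, and many are capped, spliced and polyadenylated like messenger RNAs but are less stable and stay in the nucleus. An antisense gene runs on the strand opposite its partner, and a divergent transcript starts next to the partner's promoter and runs the other way, so both can share open chromatin with that partner. Some act on the neighbouring gene, some act elsewhere in the cell, and for many no function is known.

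The promoter windows of 6 members are shown as a description, with no test tied to them. SOX21-AS1, THBS3-AS1 and ELFN1-AS1 moved with the genes they are named after. LINC00665 was among the largest rises, and MAP3K4-AS1 and LINC02104 were among the largest falls. Each window runs from 250 bases before to 50 bases after the RefSeq start on GRCh38.p14 and is written 5′ to 3′ on the strand of the lncRNA. Capitals mark GGGCGG (the GC box), CCAAT (the CCAAT box), TATAAA (the TATA box), CACGTG (an E-box), TGAGTCA (the AP-1 motif) and TGACGTCA (the CRE motif), searched on both strands. The windows lie at chr13:94712466-94712765 (+ strand) for SOX21-AS1, chr1:155194747-155195046 (+) for THBS3-AS1, chr7:1742261-1742560 (−) for ELFN1-AS1, chr19:36331669-36331968 (−) for LINC00665, chr6:160992293-160992592 (−) for MAP3K4-AS1 and chr5:39520181-39520480 (+) for LINC02104.
SOX21-AS1: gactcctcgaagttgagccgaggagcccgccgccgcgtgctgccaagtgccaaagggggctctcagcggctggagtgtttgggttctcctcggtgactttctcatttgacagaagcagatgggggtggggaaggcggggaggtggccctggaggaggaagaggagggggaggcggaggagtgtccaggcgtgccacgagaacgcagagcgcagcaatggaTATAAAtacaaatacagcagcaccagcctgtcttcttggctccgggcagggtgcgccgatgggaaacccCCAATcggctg
THBS3-AS1: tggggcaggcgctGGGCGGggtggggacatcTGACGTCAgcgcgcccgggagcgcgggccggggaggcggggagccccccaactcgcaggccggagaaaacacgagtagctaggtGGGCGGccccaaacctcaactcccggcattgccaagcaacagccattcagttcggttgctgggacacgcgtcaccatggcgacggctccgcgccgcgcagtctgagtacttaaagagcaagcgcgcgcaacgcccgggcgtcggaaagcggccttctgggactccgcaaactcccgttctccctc
ELFN1-AS1: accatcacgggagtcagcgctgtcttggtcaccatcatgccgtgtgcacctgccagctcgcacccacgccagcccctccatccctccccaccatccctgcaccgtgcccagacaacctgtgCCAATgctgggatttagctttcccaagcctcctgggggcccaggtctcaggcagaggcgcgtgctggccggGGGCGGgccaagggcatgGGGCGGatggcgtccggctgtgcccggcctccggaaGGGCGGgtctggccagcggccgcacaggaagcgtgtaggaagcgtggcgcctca
LINC00665: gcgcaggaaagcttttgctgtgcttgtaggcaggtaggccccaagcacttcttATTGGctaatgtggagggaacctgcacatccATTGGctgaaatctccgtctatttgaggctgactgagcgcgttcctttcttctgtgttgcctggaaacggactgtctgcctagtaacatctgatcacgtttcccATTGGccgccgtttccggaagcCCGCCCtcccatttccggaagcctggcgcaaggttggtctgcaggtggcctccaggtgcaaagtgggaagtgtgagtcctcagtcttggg
MAP3K4-AS1: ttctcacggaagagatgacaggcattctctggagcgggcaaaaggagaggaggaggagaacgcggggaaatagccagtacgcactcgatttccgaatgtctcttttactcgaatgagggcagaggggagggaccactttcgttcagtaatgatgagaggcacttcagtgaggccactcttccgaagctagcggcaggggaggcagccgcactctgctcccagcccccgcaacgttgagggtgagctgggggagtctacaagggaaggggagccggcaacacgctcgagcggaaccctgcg
LINC02104: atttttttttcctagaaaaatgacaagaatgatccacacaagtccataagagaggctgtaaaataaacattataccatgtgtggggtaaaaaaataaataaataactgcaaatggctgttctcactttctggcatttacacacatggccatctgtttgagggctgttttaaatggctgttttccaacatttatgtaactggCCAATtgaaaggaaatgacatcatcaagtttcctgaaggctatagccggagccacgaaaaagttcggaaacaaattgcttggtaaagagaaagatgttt
The SOX21-AS1 window holds a TATA box and a CCAAT box, and 270 of its 300 bases are shared with the window of SOX21, whose start lies 171 bases away on the other strand. The THBS3-AS1 window holds 2 GC boxes and a CRE motif, and that of ELFN1-AS1 holds 3 GC boxes and a CCAAT box. In the LINC00665 window there are 3 CCAAT boxes and 1 GC box, all on the opposite strand. The MAP3K4-AS1 window holds none of the 6 motifs, and that of LINC02104 holds 1 CCAAT box. A match of letters is a description and not a binding site.

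Read depth is unknown. The table gives no row for RPRD1B, so the knockdown was not analysed here. The deposited values of all 1630 genes summed to between 31894 and 33331 per library, and any pair of libraries differed in at least 96% of genes. Of 11 glial and U87MG markers 3 had a row, all lower in shCREPT (GFAP, S100B and SLC1A3, summing to 498 to 528 in shControl and 72.5 to 88.9 in shCREPT). None of 10 microglia and macrophage markers or 7 T cell markers had a row. For endothelium 2 of 6 had a row (CDH5 and KDR, summing to 43.3 to 45.3 and to 11.6 to 13.7), for fibroblasts 1 of 5 (COL1A2, lower) and for epithelium 2 of 6 (CLDN4 higher, KRT19 lower). These markers move with the groups as the lncRNAs do, and their part in the lncRNA results was not tested. In bulk RNA, fewer cells of a type and less RNA per cell cannot be told apart.

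Most of the lncRNAs were lower in shCREPT. The authors' deposited table marks 90 of the 125 down (72%) and 35 up (28%), beside 59.7% down and 40.3% up over all 1630 genes. The share marked down was 69.1% for LINC names (38 of 55), 72.2% for -AS names (39 of 54) and 80% for -DT names (12 of 15), and the intronic THBS1-IT1 was down. Summed over the 125 genes, the deposited values were 731, 721 and 728 in the shControl libraries and 955, 1008 and 865 in the shCREPT libraries. The median value per library moved the other way, from 1.86 to 1.89 in shControl to between 1.06 and 1.14 in shCREPT. A few members with high values rose (CYP1B1-AS1, LINC00665 and LINC02582 among them), while many with low values fell. The groups did not overlap in 114 of the 125, and the background share over all listed genes is 93.3%.

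**Figure D1:**
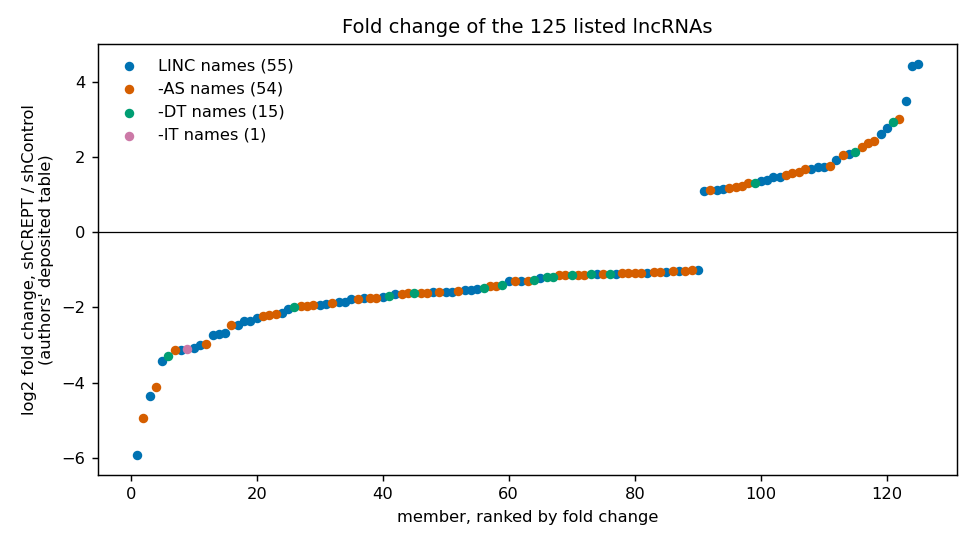
Each point is 1 of the 125 lncRNAs, ranked from the largest fall to the largest rise (x axis), with the log2 fold change between shCREPT and shControl from the authors' deposited table (y axis) and colour for the kind of name. The 90 members marked down lie at the left and the 35 marked up at the right, and the gap around 0 is the authors' threshold.

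The limma test on log2(value + 1) asked for 3 or more libraries that reach 1, which 85 of the 125 did. Of these, 28 were higher and 55 lower at an adjusted p under 0.05. Over all 1184 genes tested, 97.9% passed (40.6% higher and 57.3% lower), so passing says nothing particular about the lncRNAs. By kind of name, 14 LINC genes rose and 19 fell of 34 tested, 13 -AS genes rose and 28 fell of 41, and 1 -DT gene rose and 8 fell of 10. The median log2 change of the 85 was −0.74, and that of the other genes tested was −0.76. Changes of at least 1 on this scale were seen in 16 that rose and 20 that fell, beside 25.8% and 35.9% of all tested genes. The groups did not overlap in 79 of the 85 (96.8% over all genes tested).

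Of the 10 largest rises on the log2(value + 1) scale, 6 were in LINC genes, none of which overlaps a coding gene, and 4 in antisense genes. LINC02582 (chr18:73324941-73349878, + strand, GENCODE release 29 on GRCh38) had values of 5.57, 7.83 and 8.18 in shControl and 77.94, 84.20 and 71.07 in shCREPT. Its mean was 10.8-fold higher, and its log2 value rose by 3.28 ± 0.15 (SE; adjusted p = 7.44e-06 in limma). LINC00665 (chr19:36313067-36331718, −), an lncRNA studied in several cancers, read 17.80, 19.56 and 23.38 against 152.99, 162.95 and 126.83, or 7.29-fold higher. Every shCREPT library of both genes lay far above every shControl library, and the window of LINC00665 is printed above. LINC01013 rose 5.58-fold (2.39, 2.89 and 2.01 against 12.53, 17.06 and 11.07), LINC00973 rose 3.71-fold, LINC02732 rose 3.61-fold and LINC00707 rose 3.16-fold.

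CYP1B1-AS1 (chr2:38073447-38231651, +), named for the cytochrome P450 gene CYP1B1, had values of 59.33, 51.97 and 72.09 in shControl and 258.29, 275.85 and 197.62 in shCREPT. That is 3.99-fold higher, or 1.98 ± 0.17 on the log2 scale (SE; adjusted p = 4.63e-05 in limma). CCDC90B-AS1 (chr11:83286128-83423516, +) went from 1.86, 2.23 and 2.61 to 17.98, 19.82 and 15.29, a level 7.92-fold higher. IGFL2-AS1 rose 4.05-fold, and SLC44A3-AS1, which GENCODE types as a transcribed processed pseudogene, rose 4.65-fold. CYP1B1 and CCDC90B have no row in the table, so neither partner was analysed here.

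The 10 largest falls on the log2(value + 1) scale held 5 LINC genes, 4 antisense genes and 1 divergent transcript. That scale narrows the change of low genes: by linear fold LINC02620 (1.89, 1.26 and 1.01 against 0.00, 0.07 and 0.13, 20.8-fold lower) and LINC00519 (10.6-fold lower), named after their values were seen, fell more than any of them. HIF1A-AS1 (chr14:61681041-61695823, −), antisense to the hypoxia factor gene HIF1A, had values of 9.96, 12.76 and 8.77 in shControl and 1.58, 1.22 and 1.10 in shCREPT. Its mean was 8.07-fold lower, and its log2 value fell by 2.31 ± 0.15 (SE, limma adjusted p = 1.69e-05). The values of MAP3K4-AS1 (chr6:160990318-160992342, −), named for a kinase of the stress MAP kinase pathways, were 59.94, 68.53 and 59.69 against 19.50, 20.78 and 19.46, or 3.15-fold lower. Both groups of MAP3K4-AS1 were tight and far apart. HIF1A and MAP3K4 have no row.

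Among LINC genes, LINC02104 (chr5:39520431-39524708, +) fell 4.75-fold (7.13, 7.88 and 5.97 against 2.34, 0.78 and 1.30) and LINC02888 fell 5.02-fold. LINC02762 fell 4.14-fold, LINC00632 fell 3.54-fold and LINC02593 fell 3.06-fold. LINC00632 (chrX:140709562-140793215, +) is the host transcript of the circular RNA CDR1-AS, and its linear values went from 12.06, 11.16 and 9.22 to 2.55, 3.55 and 3.06. How far the circle contributes to those values was not tested. THBS3-AS1, SOX21-AS1 and EOLA1-DT complete the 10 largest falls. EOLA1-DT fell 3.57-fold, but EOLA1 and EOLA2 are near copies, so reads of EOLA1-DT and EOLA2-DT may have been split between them. EOLA1-DT also overlaps, on the same strand, a listed coding gene without a symbol. Both are marked down in the authors' deposited table (log2 fold −1.62 and −1.55), and whether they share reads was not tested.

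**Figure D2:**
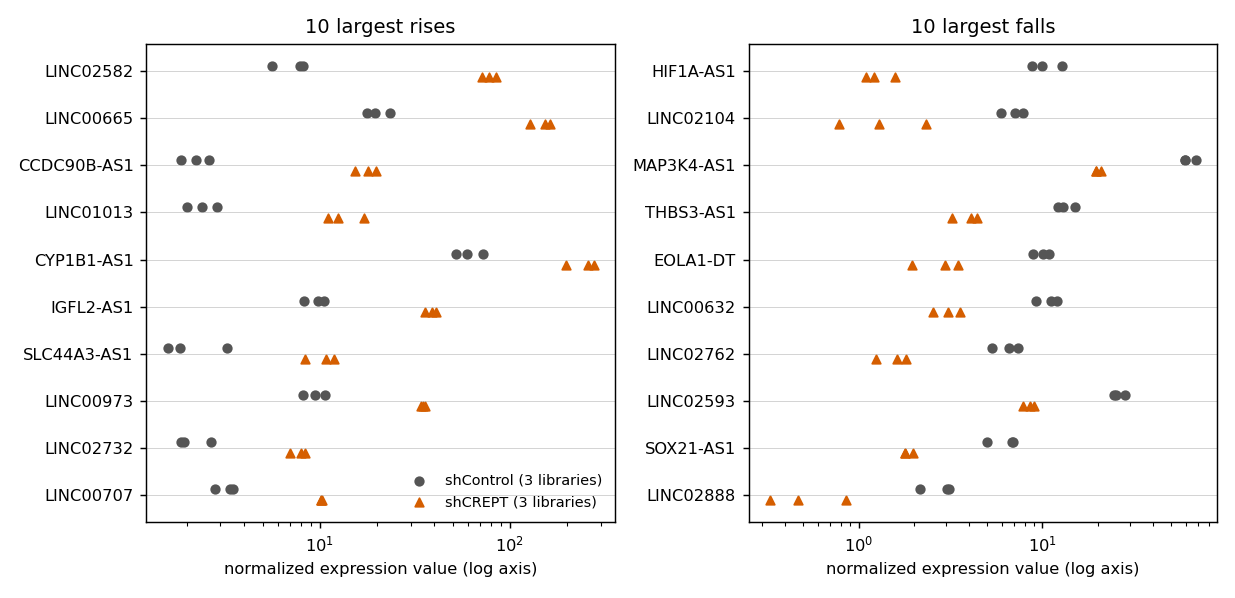
Normalized expression value of each library (log x axis) for the 10 tested lncRNAs with the largest rises and the 10 with the largest falls, 3 shControl libraries (grey circles) and 3 shCREPT libraries (orange triangles) per gene. The groups do not overlap in any of the 20, which the choice of genes required, and LINC02582 shows the widest gap.

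The members with the highest deposited values held both directions. CYP1B1-AS1, LINC00665 and LINC02582 rose, and LINC00461 and MAP3K4-AS1 fell; as the values are not stated to be per length, their order among genes is not read further. LINC00461 (chr5:88507546-88691041, −), the host gene of a miR-9 precursor and known from brain, read 197.07, 195.46 and 186.08 in shControl and 95.25, 89.94 and 94.17 in shCREPT. It was 2.07-fold lower, with a log2 fall by 1.04 ± 0.08 (SE, limma adjusted p = 2.43e-05). That call was lost under median-of-ratios rescaling (log2 change −0.17, limma adjusted p = 0.0818).

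At the lower edge of the filter, TRHDE-AS1 rose (0.50, 0.65 and 0.40 against 1.22, 1.14 and 1.25) and LINC01271 fell (1.30, 1.28 and 1.16 against 0.42, 0.44 and 0.84), a call lost under median-of-ratios rescaling (log2 change −0.13, limma adjusted p = 0.393). LINC02606 did not pass (1.36, 1.30 and 0.82 against 0.34, 0.53 and 1.0, limma adjusted p = 0.0531), and its groups overlapped. The other tested member that did not pass was GTSE1-DT, named after its values were seen, whose libraries scattered from 0.05 to 2.51 in shControl and from 0.93 to 6.09 in shCREPT (limma adjusted p = 0.0945). A further 9 members lost their call when a single library was left out, all of them with falls: EOLA2-DT, LINC00705, LINC01303, LINC02482, LMNTD2-AS1, MIOS-DT, SNAI3-AS1, SOX9-AS1 and USP34-DT.

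The 40 untested lncRNAs are low: 20 of them were under 1 in all 6 libraries, and 8 of them were listed at 0 in at least 1 library. The authors marked 34 of the 40 down and 6 up, beside 59.7% down and 40.3% up over all listed genes. Most of the listed genes passed the filter. The groups did not overlap in 35 of the 40. That share is 93.3% over all listed genes and 96.8% over tested genes. It is therefore lower than 93.3% among all genes that the filter leaves out. Without the filter, 35 of the 40 passed in limma, 6 higher and 29 lower, beside 76.9% of all 446 genes that the filter leaves out. The highest of them were DPH6-DT (5.71, 1.69 and 0.89 against 0.59, 0.91 and 0.89), where 1 shControl library stands apart and the groups overlap, HAS2-AS1 and THBS1-IT1. LINC02934, named after its values were seen, was listed at 0 in all 3 shControl libraries and at 0.27, 0.12 and 0.30 in shCREPT, so no fold is given. In 9 members with a fold, all low, the log2 ratio of the group means differed from the authors' log2 fold by over 0.5, and for PRDM16-DT it was −0.57 against −3.28 in the authors' deposited table.

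Which falls passed depended on the scaling. Median-of-ratios rescaling moved the shCREPT libraries up by 0.879 on the log2 scale relative to shControl. The shift was computed over the 1447 listed genes with no value of 0, a table in which most genes are marked down. With no unchanged genes there to set the scale, a call lost after rescaling cannot show whether that gene changed. After rescaling, 29 of the 85 tested lncRNAs were higher and 21 lower at an adjusted p under 0.05 in limma. By the same measure 41.6% of all tested genes were higher and 31.8% lower. Of the 83 calls 34 were lost (41%), beside 299 of 1159 (25.8%) over all tested genes, and the median change of the lncRNAs was −0.13, as it was for the other genes. The sign turned for NR2F1-AS1 (from −0.75 to 0.06), VIM-AS1 (from −0.48 to 0.13) and SNAI3-AS1 (from −0.50 to 0.04); the last 2 were named after their values were seen. Each of the 10 largest rises and 10 largest falls kept its direction and passed under both scalings. As rescaling moved every tested lncRNA up, by 0.27 to 0.87, only the falls could have turned. HIF1A-AS1 still fell by 1.65, MAP3K4-AS1 by 0.75 and SOX21-AS1 by 0.67 on the log2 scale, while LINC02582 rose by 4.09.

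**Figure D3:**
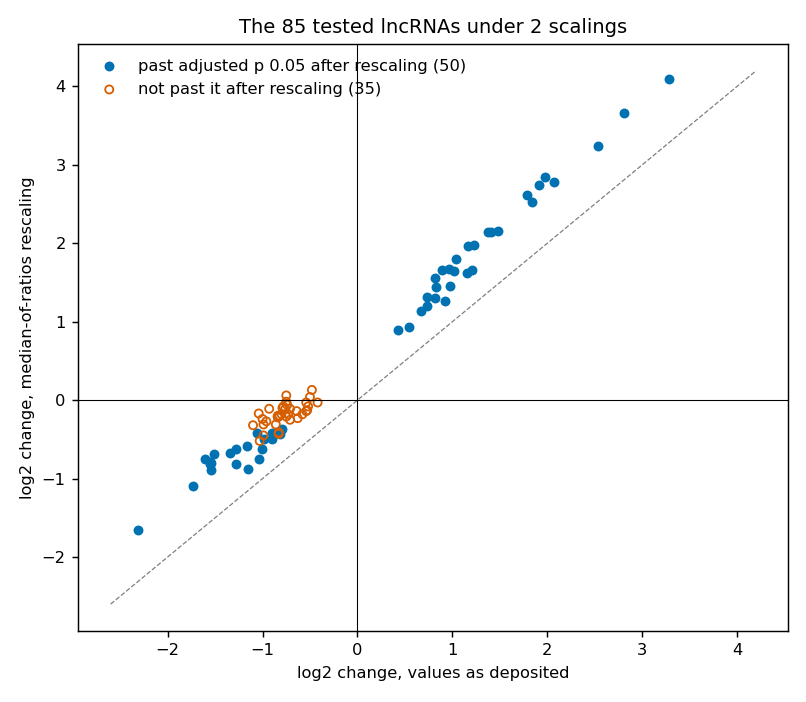
Log2 change of each of the 85 tested lncRNAs with the values as deposited (x axis) and after median-of-ratios rescaling (y axis); the dashed line marks equal values. All points lie above the line, by 0.27 to 0.87, and the 35 open circles, which do not pass after rescaling, all had a lower value in shCREPT as deposited.

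Of the 70 names built on a partner gene, 17 had a partner with a row: 13 -AS, 3 -DT and 1 -IT. In all 17 pairs the lncRNA and its partner moved in the same direction by the group means as deposited, 12 lower in shCREPT and 5 higher. After median-of-ratios rescaling, PRDM16-DT and NR2F1-AS1 no longer moved with their partners. The -AS pairs alone gave 9 lower and 4 higher. In 12 pairs both genes were tested, and both passed in every one of them, where 97.9% of all tested genes do. The partner of 53 names has no row, including 41 of 54 -AS genes, so agreement is seen only among pairs that both reached the authors' threshold. Exons of lncRNA and partner overlap in 9 pairs; as strand-keeping libraries or counting are not stated, reads there cannot be told apart between the genes. The other 8 pairs share no annotated exon base, and in 5 of these the gene bodies do not overlap either. In those of PPP1R26, ELFN1 and THBS1 the bodies overlap in GENCODE. Whether unspliced reads of one gene were counted for the other there was not tested. The 4 -DT and -IT pairs were added after their values were seen.

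**Figure D4:**
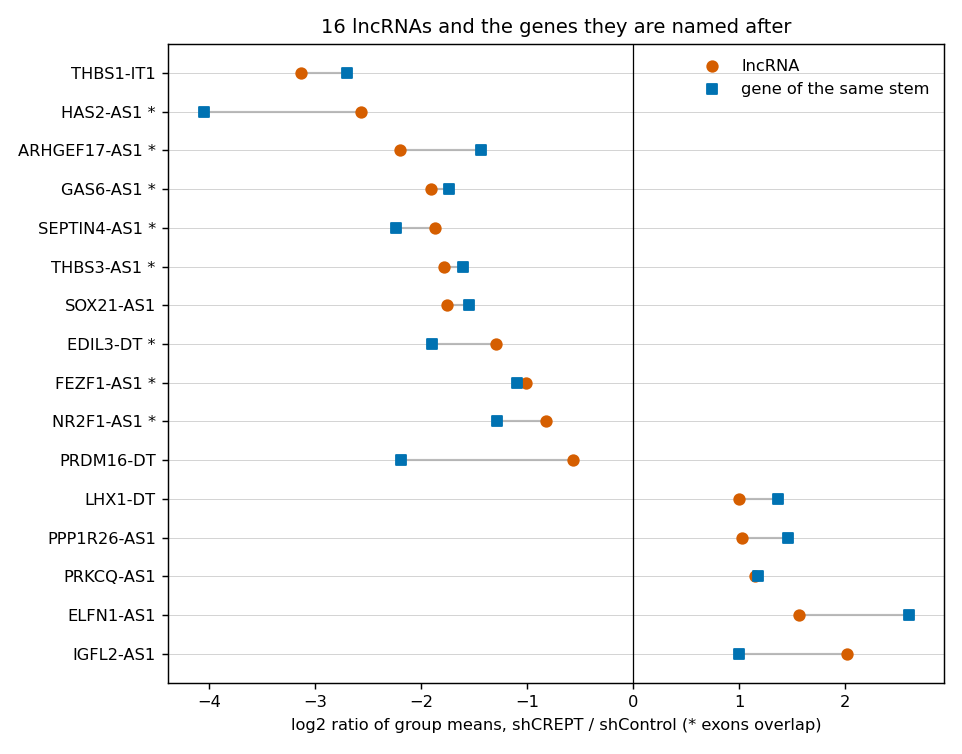
Log2 ratio of group means, shCREPT over shControl (x axis), for 16 of the 17 lncRNAs (orange circles) and the gene it is named after (blue squares), joined by a grey line; an asterisk marks pairs whose exons overlap. In each pair both marks lie on the same side of 0, with HAS2-AS1 and PRDM16-DT showing the longest lines.

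Head-to-head pairs without any shared base were those of SOX21, PRKCQ, LHX1 and PRDM16. SOX21 is a transcription factor of neural progenitors, and SOX21-AS1 starts beside it (the shared window is printed above). SOX21-AS1 had values of 5.01, 6.85 and 6.90 in shControl and 1.78, 1.98 and 1.79 in shCREPT, 3.38-fold lower. SOX21 itself read 5.55, 5.20 and 5.90 against 1.90, 2.23 and 1.56, 2.93-fold lower. The groups did not overlap for either gene, and the log2 change was −1.34 ± 0.13 for SOX21-AS1 and −1.18 ± 0.11 for SOX21 (SE, limma adjusted p = 6.82e-05 and 6.09e-05).

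PRKCQ encodes protein kinase C theta, and GENCODE places the start of PRKCQ-AS1 118 bases from its own. PRKCQ-AS1 went from 6.43, 5.55 and 3.84 to 11.64, 12.05 and 11.30, and PRKCQ from 3.31, 3.23 and 2.97 to 6.73, 7.35 and 7.46. The rises were 2.21-fold and 2.26-fold. LHX1, a LIM homeobox factor of early brain and kidney, starts 124 bases from LHX1-DT. LHX1-DT rose 1.99-fold (6.07, 6.15 and 3.86 against 9.5, 11.10 and 11.39) and LHX1 rose 2.58-fold (3.0, 1.64 and 1.51 against 4.76, 6.76 and 4.35). In these 3 tested pairs both genes kept their call under both scalings, though the upward shift put only the SOX21 pair at risk. PRDM16-DT was too low to test (0.29, 0.41 and 0.13 against 0.01, 0.01 and 0.54), its groups overlapped, and the rescaled means put it higher in shCREPT while the zinc finger factor PRDM16, 4.57-fold lower as deposited, stayed lower.

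Among pairs whose 5′ ends overlap, HAS2, the enzyme that makes hyaluronan, and HAS2-AS1 gave the largest difference in fold. HAS2 fell from 12.76, 13.91 and 13.61 to 0.69, 0.82 and 0.92, 16.6-fold lower, and HAS2-AS1 read 3.60, 0.79 and 1.93 against 0.00, 0.67 and 0.40, 5.91-fold lower and untested. EDIL3 encodes a secreted integrin ligand, and its values were 148.57, 151.09 and 145.28 against 39.57, 38.64 and 40.84, 3.74-fold lower. EDIL3-DT read 4.70, 6.93 and 5.24 against 2.16, 2.50 and 2.24, 2.44-fold lower. The fall of EDIL3 passed under both scalings, while that of EDIL3-DT did not pass after rescaling (log2 change −0.31, limma adjusted p = 0.0746).

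NR2F1 encodes an orphan nuclear receptor of the developing brain. NR2F1-AS1 read 19.10, 14.76 and 15.84 against 8.03, 10.65 and 9.57, 1.76-fold lower, and NR2F1 read 179.33, 175.96 and 181.49 against 74.04, 70.18 and 76.14, 2.44-fold lower. After rescaling the antisense gene no longer moved with its partner. ARHGEF17 fell 2.70-fold and ARHGEF17-AS1, with 57% of its exon bases inside exons of the partner, fell 4.58-fold. PPP1R26, a regulator of protein phosphatase 1, rose 2.74-fold (4.49, 4.62 and 5.54 against 13.24, 14.27 and 12.65), and PPP1R26-AS1 rose 2.04-fold (1.19, 1.21 and 2.36 against 2.63, 2.97 and 4.12) with no exon base shared. The RefSeq start of PPP1R26-AS1 lies 7533 bases from that of PPP1R26, so their overlap of 5′ ends holds in GENCODE only.

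The remaining pairs are arranged in other ways: the lncRNA starts inside its partner, spans it, meets it at the 3′ end or lies apart. THBS3 encodes a thrombospondin of the extracellular matrix. THBS3-AS1 read 15.02, 12.20 and 12.86 against 4.10, 3.21 and 4.40, 3.42-fold lower, and THBS3 read 32.63, 28.75 and 29.42 against 9.32, 9.87 and 10.62, 3.05-fold lower, with 41.6% of the exon bases of THBS3-AS1 inside exons of THBS3. SEPTIN4, a GTP-binding septin, fell 4.71-fold and SEPTIN4-AS1, which spans it on the other strand, fell 3.64-fold. FEZF1, a forebrain zinc finger factor, fell 2.15-fold and FEZF1-AS1 fell 2.0-fold, and neither passed after rescaling. GAS6, the ligand of the AXL family of receptors, fell 3.33-fold, and GAS6-AS1 was under 1 in all libraries and 3.75-fold lower, untested.

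ELFN1-AS1 lies in an intron of ELFN1, a synaptic leucine-rich repeat protein, and read 3.89, 4.39 and 5.21 against 13.32, 13.37 and 13.11, 2.95-fold higher. ELFN1, untested, read 0.13, 0.15 and 0.14 against 1.15, 0.68 and 0.72. IGFL2-AS1 lies 27866 bases from IGFL2, an insulin growth factor-like gene, and rose from 9.83, 8.25 and 10.46 to 35.82, 39.00 and 40.75. IGFL2 rose 1.99-fold (0.79, 0.87 and 0.32 against 1.21, 1.21 and 1.53), and its call was lost without shCREPT replicate 3 (log2 change 0.43, limma adjusted p = 0.0546). THBS1-IT1 lies on the same strand inside THBS1, a matrix thrombospondin that fell 6.48-fold, and its untested values were 2.53, 2.55 and 0.61 against 0.54, 0.00 and 0.11.

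**Figure D5:**
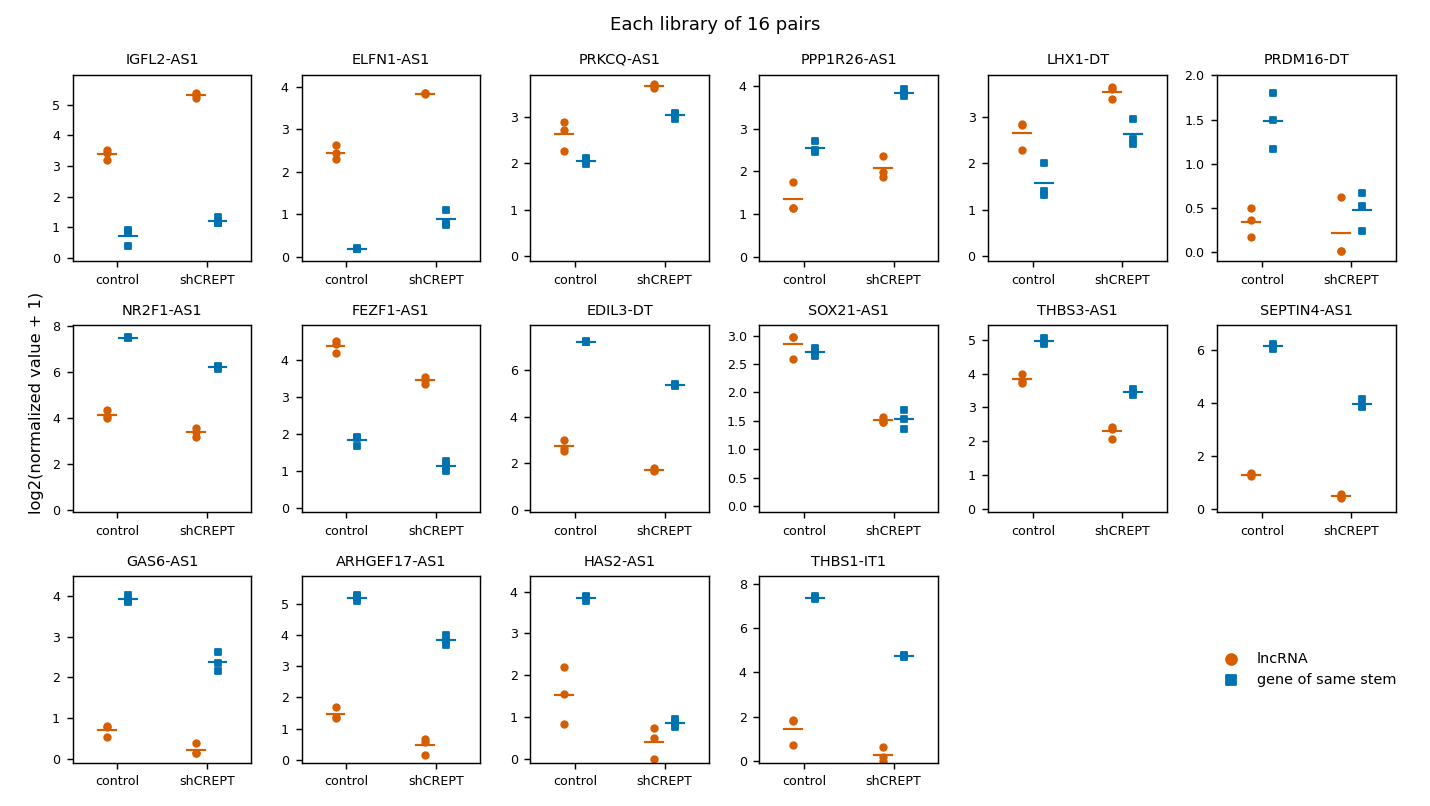
Each of 16 panels shows log2(normalized value + 1) of a pair (y axis) in the 3 shControl and 3 shCREPT libraries (x axis), with the lncRNA as orange circles, the gene of the same stem as blue squares and group means as bars. On this scale the partner panels of HAS2, EDIL3 and THBS1 fall farther than their lncRNAs, and SOX21, PRKCQ and THBS3 move side by side with theirs.

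Whether lncRNA and partner moved by the same amount was tested on the log2 ratio of the pair in each library. The groups of ratios did not overlap in 10 of 17 pairs, with differences (shCREPT minus shControl) from −0.57 for PPP1R26-AS1 to 1.87 for HAS2-AS1. The share among other pairs of listed genes was not computed, so this count says nothing particular about these pairs. With 3 libraries against 3 the exact two-sided permutation p cannot go below 0.1, and the smallest Benjamini-Hochberg adjusted value over the 17 was 0.17, so no pair passed. The differences were 1.35 for SEPTIN4-AS1, 1.42 for IGFL2-AS1, 0.88 for EDIL3-DT and 0.52 for NR2F1-AS1. By linear fold SEPTIN4-AS1 and its partner lay closer than 1.35 conveys, at 3.64-fold and 4.71-fold lower. For SOX21-AS1 (−0.15), PRKCQ-AS1 (0.06), THBS3-AS1 (−0.04) and LHX1-DT (−0.16) the ratios of the 2 groups overlapped. The added 1 in log2(value + 1) narrows the change of the lower gene. Among pairs without overlap of ratios, the linear folds of GAS6-AS1, ELFN1-AS1 and THBS1-IT1 order the pair the other way. So do those of others whose ratios overlapped, among them ARHGEF17-AS1 (4.58-fold against 2.7-fold lower), FEZF1-AS1 and PRKCQ-AS1.

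Other listed genes close to a lncRNA were looked up for all 125. Within 100000 bases, 46 lncRNAs had a listed neighbour, giving 50 pairs, and 42 of these (84%) were marked in the same direction in the authors' deposited table. Without the 17 pairs that share a name the count was 25 of 33 (75.8%), and among pairs of listed genes that include no lncRNA of the 125 it was 229 of 304 (75.3%), so neighbours beyond the name pairs stood near the background. Where bodies overlap all 14 pairs with a lncRNA had the same direction, 12 of them name pairs, against 52 of 65 (80%) elsewhere. The next genes were named after their values were seen. Lower together were DLX6-AS1 and the homeobox gene DLX5, 6326 bases apart, LMNTD2-AS1 and MIR210HG, the host of the hypoxia microRNA miR-210, and LINC02888 and AHR, the aryl hydrocarbon receptor. SLC44A3-AS1 and F3, the tissue factor gene, were higher together. Opposite were CYP1B1-AS1, marked up, and RMDN2, marked down, 6304 bases apart; ABHD11-AS1, marked down, and the claudin gene CLDN4, marked up; and LINC00324, marked down, and the mitotic kinase gene AURKB, marked up.

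By position, 62 of the 125 lie opposite a coding gene on the other strand, 45 of them with exon overlap, 60 lie clear of coding genes and 6 overlap a coding gene on the same strand. GENCODE types 62 as lincRNA, 50 as antisense, 8 as processed transcript and 2 as sense intronic. The 3 others have names that do not match their type: LINC02693 is protein-coding there, SLC44A3-AS1 a processed pseudogene and ABHD11-AS1 a unitary pseudogene. LINC02693, named after its values were seen, rose 2.38-fold (5.37, 8.43 and 7.94 against 18.34, 18.58 and 14.85). Listed genes of noncoding type whose names the rule did not take were marked down in 54.4% (68 of 125), and listed coding genes in 58.6% (715 of 1220).

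RefSeq windows were found for 85 of the 125, of which 63 are marked down and 22 up. A GC box was in 32.9% of these windows and in 44.6% of 27305 windows of all genes, and a CCAAT box in 45.9% against 35.7%. TATAAA was in 14.1% against 12%, CACGTG in 3.53% against 7.43%, and TGACGTCA in 2.35% against 1.98%. The median observed-over-expected ratio of CpG sites was 0.461 against 0.58. TGAGTCA was in 8.24% against 4.92%: in 3 of 63 windows of members marked down and in 4 of 22 of members marked up, those of LINC00607, LINC00702, LINC02542 and PPP1R26-AS1. These shares are descriptions with no test, and GC content differs between the sets.

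Among 66 lncRNAs known mostly under names of other kinds, 12 had a row and 10 were tested. Of these, 5 rose and 5 fell at an adjusted p under 0.05 in limma. Over all tested genes 97.9% passed (40.6% higher and 57.3% lower), so passing says nothing particular about this list. The untested H19 and MEG8, named after their values were seen, had higher means in shCREPT. UCA1, an lncRNA first known from bladder cancer, rose 17.6-fold (1.13, 0.50 and 0.82 against 13.70, 17.58 and 11.87), the imprinted MEG3 rose 4.79-fold, the Alu-like BCYRN1 rose 3.63-fold and LUCAT1 rose 3.20-fold. MIR210HG fell 3.38-fold (28.20, 26.91 and 26.90 against 6.50, 9.33 and 8.43), and MIR503HG fell 2.36-fold. After rescaling, whose upward shift favours rises, the 5 rises and 2 of the 5 falls, MIR210HG and SNHG18, still passed in limma. MIR503HG, MIAT and SOX2-OT did not. The naming of SNHG18, MIAT and SOX2-OT followed a look at their values. Of the genes that break down or end such transcripts, 0 of 25 of the nuclear exosome and its adaptors and 0 of 33 of the polymerase II 3′-end and Integrator machinery had a row; whether they changed is not known, as only genes past the authors' threshold are listed. Of 17 genes that sense or edit double-stranded RNA, only ZBP1 had a row, and it rose 7.95-fold (0.54, 0.08 and 0.23 against 2.0, 1.79 and 2.97).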

How the data were processed

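Total RNA of U87MG cells was extracted with a column kit and made into libraries with NEBNext Ultra reagents, per the labels' protocols; strandedness is not stated. HISAT2, HTSeq and GRCh38 were used, per the submitters' processing notes. The deposited table gives a normalized signal per library, per the file headers, with no word on TPM or FPKM or on the normalization, so depth is unknown. The authors' deposited columns of ratio (fold change), log2 fold change, p-value and adjusted p-value served only as a description. The table holds only genes marked significant, where the design assumed all genes; the tests were kept. Members, gene lists and tests were chosen with earlier results of these data known.

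Values were taken as log2(value + 1). Genes reaching 1 in 3 or more libraries were compared with limma 3.58.1 (R 4.3.3, no covariate), with Benjamini-Hochberg adjustment over all genes tested and a threshold of 0.05. The limma step was tested on simulated data. Linear folds are ratios of group means (n = 3 per group). Positions and types came from GENCODE release 29 by gene identifier (125 of 125 lncRNAs and 1549 of 1630 genes matched), and promoter windows from RefSeq by symbol (85 of 125). Named genes were the lncRNAs with a partner in the table and that partner, the 10 largest rises and falls past the threshold without overlap of groups, the 5 highest means, 3 genes at each side of the filter, and up to 6 per gene list by adjusted p; others are said to be named later. Of the pairs, 1 is counted but not reported here by name. Other settings tried were pseudocounts of 0.1 and 5, a minimum of 10 or none, rescaling by median of ratios or quantiles, limma's trend and robust options, a replicate block, and leaving out each library. The rest was done in pandas 2.3.3, numpy 2.4.6, matplotlib 3.10.9 and scipy 1.17.1 (Python 3.11.15).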

Additional observations from a re-analysis of the deposited data

How the results depend on the processing

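With a minimum of 10 in 3 libraries, 485 genes in all passed (1159 otherwise), with 11 lncRNAs higher and 7 lower. The median log2 change of the lncRNAs was then 1.27, and 2 of 2 antisense pairs had the same sign. Fewer genes were tested. Shares and a median for the other genes at this minimum were not computed, so nothing particular to lncRNAs is read from it. Without the filter 34 lncRNAs were higher and 84 lower of 125, and 1497 of all 1630 genes passed. Median-of-ratios rescaling left 21 lower, a median of −0.13, 12 of 13 antisense pairs of the same sign, and NR2F1-AS1 at 0.06 (limma adjusted p = 0.699). The median was −1.04 with a pseudocount of 0.1, −0.27 with 5, −0.60 without the filter and −0.50 after quantile normalization. Leaving out each library gave 1137 to 1152 genes in all, 28 to 29 lncRNAs higher, 49 to 52 lower and a median of −0.72 to −0.65. Of 57 named and tested genes, 47 kept call and sign in every setting that tested them, 9 lost the call or turned in at least 1, and LINC02606, not called otherwise, gained a call in 3. In an alternative chosen after seeing the data, all 10 antisense pairs with both genes past the filter had the same sign.

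Same-numbered libraries did not deviate together (correlations −0.109, 0.018 and −0.179), so no pairing by number shows in these values. The labels do not say whether same-numbered libraries were handled together. With the replicate block 1156 genes in all passed, 28 lncRNAs were higher and 54 lower, the median was −0.74, and LINC01303 lost its call. Depth is unknown, and lncRNAs under 1 carry few digits. The table holds no unchanged genes, so no setting shows how lncRNAs outside it behaved.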
